A study of Saccharomyces cerevisiae with 12 samples.

Results

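The genes described here are the 7 yeast genes that move sulfur between homocysteine and cysteine, join cysteine into glutathione and bring cysteine into the cell: CYS4, CYS3, STR2, STR3, GSH1, GSH2 and YCT1. They were found by name among the 6347 features of the deposited mRNA table, 1 row each, and all 7 passed the filter on low values that left 5982 yeast features for testing. The 7 were chosen from pathway knowledge with the strain differences of these same libraries already known. Their differences between the strains are therefore given as a description and not as a test.

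Cells of *Saccharomyces cerevisiae* came from the engineered laboratory strain D452-2. The plasmid pRS316 in both strains expressed cdt-1, which encodes a membrane protein of *Neurospora crassa* that takes up cellodextrins and which the table describes as tagged with GFP at its C-terminus. In the NC strain cdt-1 kept its endogenous codons, and in the OPT strain its codons were optimized for yeast. Cultures were taken in mid-exponential growth, with 3 mRNA libraries per strain that the design text calls biological replicates. No untransformed strain and no empty plasmid is among the samples, so each value below sets one cdt-1 strain against the other.

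Transsulfuration is the exchange of sulfur between homocysteine and cysteine through the intermediate cystathionine. In the forward direction cystathionine beta-synthase (Cys4) joins homocysteine with serine, and cystathionine gamma-lyase (Cys3) splits the product to release cysteine. The reverse direction uses cystathionine gamma-synthase (Str2) and the peroxisomal cystathionine beta-lyase (Str3) to carry sulfur from cysteine back to homocysteine, the precursor of methionine. Glutathione, the main thiol buffer of the yeast cell, is made from cysteine, glutamate and glycine by gamma-glutamylcysteine synthetase (Gsh1), the rate-limiting step, and glutathione synthetase (Gsh2). Yct1 is a high-affinity cysteine transporter.

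Levels are normalized RPKM (reads scaled to transcript length and library size), which add up to between 999285 and 999421 in each library and thus behave as shares of a total. The estimated depth was 23500000 to 30500000 reads in NC and 33500000 to 43100000 in OPT, so depth differed between the strains, and its part in the results was not tested. The row for cdt-1 with endogenous codons stood at 506 to 567 RPKM in NC and was listed at 0 in OPT, and the row for the optimized version at 420 to 557 in OPT and at 0 in NC, as the labels say. Across features, log2 values correlated at 0.991 to 0.996 between OPT libraries and at 0.979 to 0.992 between NC libraries, with NC replicate 3 the farthest from the others. A lower share of RPKM can reflect fewer transcripts per cell or more of all other transcripts, and these cannot be told apart in such values.

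Both genes of the forward direction stood more than 2-fold higher in OPT. CYS4 (chromosome VII, 798543 to 800066 in build R64, 1524 nucleotides) was measured at 413, 439 and 289 RPKM in NC replicates 1, 2 and 3 and at 912, 965 and 789 RPKM in OPT replicates 1, 2 and 3. Every OPT library lay above every NC library, and replicate 3 was the lowest of its strain in both. The mean level went from 381 ± 80.1 RPKM in NC to 889 ± 90.5 RPKM in OPT (SD, n = 3), 2.34 times as high, and log2 levels differed by 1.24 (OPT minus NC, standard error 0.17). It was the most abundant of the 7 mRNAs per length in each library.

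CYS3, the next step (chromosome I, 130799 to 131983), followed with 216, 222 and 181 RPKM in the 3 NC libraries and 584, 605 and 537 RPKM in the 3 OPT libraries. The strains were far apart beside the spread within each, with a coefficient of variation of 10.7% in NC and 6.09% in OPT. The SD of its log2 values, 0.16 in NC and 0.09 in OPT, was somewhat above the medians over all features, 0.13 and 0.07. Its mean level of 207 ± 22 RPKM in NC stood against 575 ± 35 RPKM in OPT (SD, n = 3), 2.78 times as high, with a log2 difference of 1.48 and a standard error of 0.10. By mean level among the 5982 features tested, counted from the most abundant, CYS4 ranked 494 in NC and 209 in OPT, and CYS3 ranked 849 and 336.

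The pair of genes for the reverse direction did not move together. STR2 (chromosome X, 665218 to 667137), whose product makes cystathionine from cysteine, stood at 126, 123 and 93.2 RPKM in NC and at 78.6, 77.0 and 70.5 RPKM in OPT. All 3 OPT values lay below the lowest NC value, that of replicate 3. The mean level was 114 ± 18.2 RPKM in NC and 75.4 ± 4.26 RPKM in OPT (SD, n = 3), a ratio of 0.66 and a log2 difference of -0.58 with a standard error of 0.12.

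STR3 (chromosome VII, 154615 to 156012), whose product completes the route to homocysteine, stood at 52.6, 58.5 and 49.1 RPKM in NC and at 86.5, 92.3 and 60.8 RPKM in OPT. The strains did not overlap, but OPT replicate 3 lay much nearer to the highest NC library than to the other OPT libraries. The log2 difference was 0.55 with a standard error of 0.16, from a mean level of 53.4 ± 4.75 RPKM in NC and 79.9 ± 16.7 RPKM in OPT (SD, n = 3). Without OPT replicate 3 it was 0.73. STR2 was 1.90 to 2.40 times as abundant per length as STR3 in the NC libraries and 0.834 to 1.16 times as abundant in the OPT libraries.

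**Figure D1:**
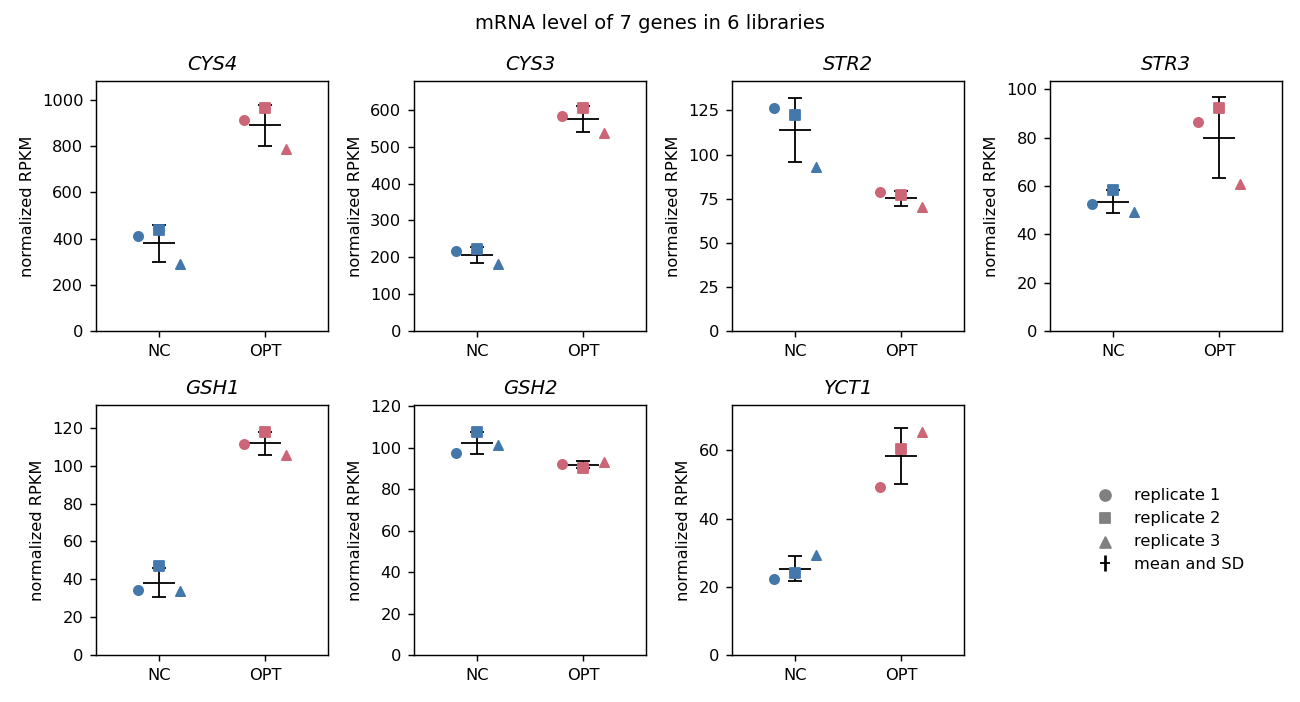
Normalized RPKM (linear axes from 0, a separate scale for each gene) of the 7 genes in the 3 NC libraries (blue) and the 3 OPT libraries (red), with the mean and SD in black. CYS4, CYS3, GSH1, YCT1 and STR3 lie higher in OPT, STR2 and GSH2 lie lower, and the strains do not overlap in any of the 7.

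The genes for glutathione synthesis differed from each other. GSH1 (chromosome X, 234320 to 236356), for the first and rate-limiting enzyme, stood at 34.1, 46.8 and 33.8 RPKM in NC and at 112, 118 and 106 RPKM in OPT. The lowest OPT library was more than 2-fold above the highest NC library, NC replicate 2. The mean level was 38.2 ± 7.43 RPKM in NC and 112 ± 6.13 RPKM in OPT (SD, n = 3), 2.93 times as high and the largest ratio among the 7, with a log2 difference of 1.54 and a standard error of 0.13. Its level ranked 3606 of 5982 features in NC and 1425 in OPT.

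GSH2 (chromosome XV, 238619 to 240094), for the second enzyme, stood at 97.4, 108 and 101 RPKM in NC and at 92.2, 90.2 and 93.4 RPKM in OPT. These 6 values lie close together, with the OPT values just below the lowest NC value. The mean level was 102 ± 5.27 RPKM in NC and 92.0 ± 1.6 RPKM in OPT (SD, n = 3), and the log2 difference of -0.15, with a standard error of 0.06, was close to the median of all features tested, -0.06. Relative to that median the gap was smaller still: with library medians set equal the GSH2 difference was -0.09, and with quantile normalization it was -0.07.

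YCT1 (chromosome XII, 30109 to 31704), the cysteine transporter, was the least abundant member in NC, with 22.4, 23.9 and 29.4 RPKM there and 49.4, 60.4 and 65.5 RPKM in OPT. Its lowest OPT value was well above its highest NC value, and replicate 3 was here the highest of both strains. The mean level was 25.2 ± 3.68 RPKM in NC and 58.4 ± 8.26 RPKM in OPT (SD, n = 3), 2.32 times as high, with a log2 difference of 1.18 and a standard error of 0.14. Even at its lowest value, in NC replicate 2, YCT1 rested on an estimated 928 reads, for which counting alone gives an error of 3.3%, while the library values of YCT1 varied by 14.6% in NC and 14.1% in OPT. The other members rested on 1859 reads or more per library.

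At an adjusted p under 0.05 over all features (limma, Benjamini-Hochberg), 4 of the 7 members were called higher in OPT (CYS4, CYS3, GSH1 and YCT1), where 5.38% of all tested features were, and 1 was called lower (STR2), where 13.8% of all features were. STR3 and GSH2 were not called. The number of features called lower was 823 and depended on the setting, with 491 at equal library medians and 227 to 1503 when 1 library was left out. The strains did not overlap in 7 of 7 members, against 40.7% of all features. Because the members were chosen with this contrast known, nothing is read from these counts. The median log2 difference of the 7 was 1.18. Ordered by log2 difference from the highest, GSH1, CYS3, CYS4 and YCT1 took places 46, 49, 76 and 82 of 5982, STR3 place 256, and GSH2 and STR2 places 3991 and 5760. The 4 called higher were also called in each of the 14 alternative fits. STR2 lost its call when NC replicate 2 or any 1 OPT library was left out, and STR3 gained one without OPT replicate 3, and also after quantile normalization or when library medians were set equal.

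**Figure D2:**
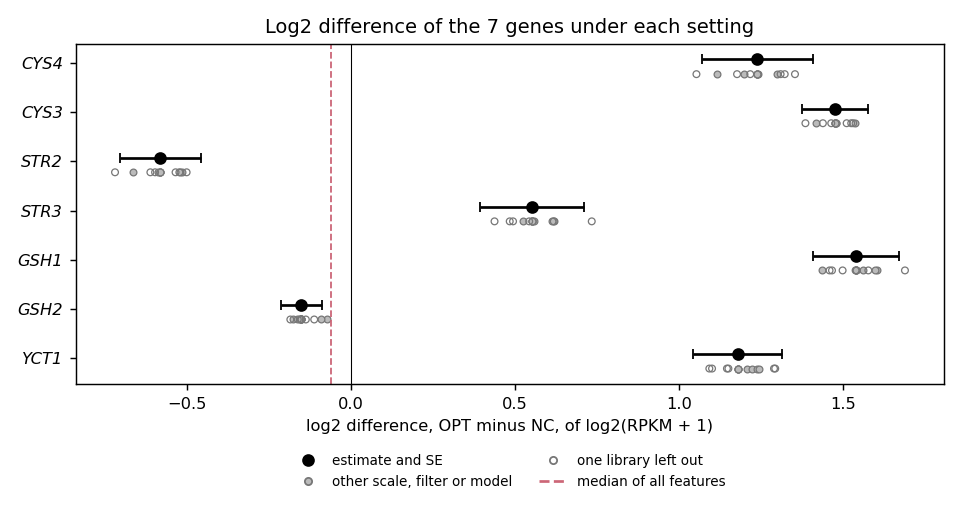
Log2 difference, OPT minus NC, of log2(RPKM + 1) for each gene with its standard error (black), its value under 8 other scales, filters or models (grey) and with 1 library left out (open), and the median of all features (dashed). GSH1, CYS3, CYS4 and YCT1 stay above 1 and GSH2 stays between -0.18 and -0.07.

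Seen as steps of the pathway, mRNAs of the forward direction stood higher against those of the reverse one in OPT. The mRNA of the first glutathione step did so against that of the second. Enzyme amounts and flux are not read from such mRNA levels. CYS4 and CYS3 together came to 629, 661 and 471 RPKM in NC and to 1496, 1570 and 1325 RPKM in OPT. STR2 and STR3 together came to 179, 181 and 142 RPKM in NC and 165, 169 and 131 RPKM in OPT, so their summed level overlapped between the strains while its makeup differed. The ratio of the forward sum to the reverse sum was 3.51, 3.65 and 3.31 in the NC libraries and 9.07, 9.28 and 10.1 in the OPT libraries.

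Per length, GSH1 mRNA was 0.350, 0.434 and 0.333 times as abundant as GSH2 mRNA in the NC libraries, and 1.21, 1.31 and 1.13 times in the OPT libraries. GSH1 was thus the rarer of the pair in each NC library and the more abundant in each OPT library. Within the forward pair the ratio of CYS4 to CYS3 stayed closer, at 1.83 ± 0.204 in NC and 1.54 ± 0.0649 in OPT (SD, n = 3), with the lowest NC library, at 1.59, just below the highest OPT library, at 1.6. All 7 mRNAs together made up 0.0778 to 0.102% of the RPKM in NC and 0.172 to 0.201% in OPT. Since these ratios are taken within a library, the scale of the library does not enter them.

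**Figure D3:**
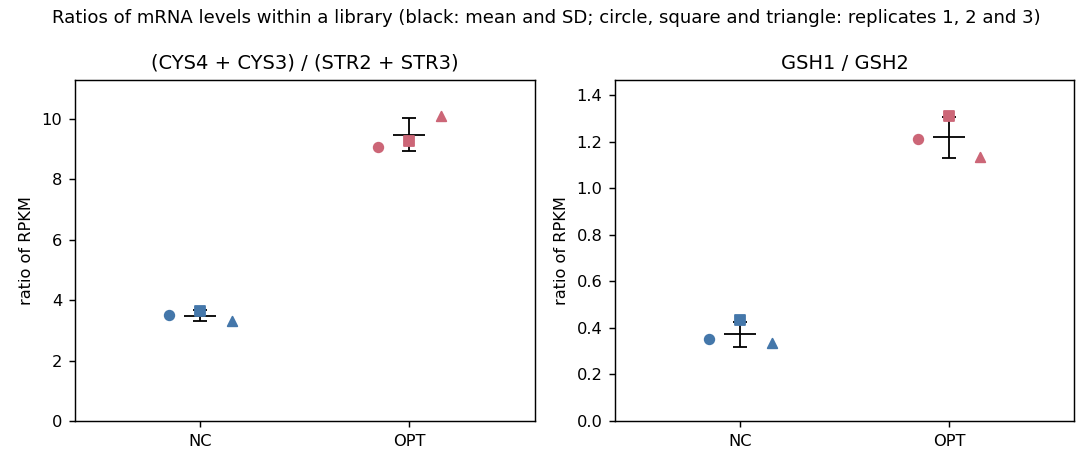
Ratio of RPKM within each library (linear axes from 0) of the forward genes to the reverse genes (left) and of GSH1 to GSH2 (right), with the mean and SD of 3 libraries per strain. The forward to reverse ratio is 3.31 to 3.65 in NC and 9.07 to 10.1 in OPT, and the GSH1 to GSH2 ratio passes 1 in the OPT libraries only.

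Several members deviated together within a strain. In NC, replicate 3 held the lowest value of 5 members (CYS4, CYS3, STR2, STR3 and GSH1), and in OPT replicate 3 held the lowest value of the same 5. Many features did the same: 49.9% of all tested features were lowest in NC replicate 3, 30.5% in OPT replicate 3 and 20.9% in both. The replicate numbers follow the order of the samples, and the labels do not say whether a library of NC was handled together with one of OPT. On the log2 scale CYS4 lay 0.37 below the strain mean in NC replicate 3, a deviation of -0.37, and STR3 deviated by -0.36 in OPT replicate 3. YCT1 went the other way in both, at 0.22 in NC replicate 3 and 0.17 in OPT replicate 3. GSH1 in NC was set apart mainly by replicate 2, at 0.30, with replicates 3 and 1 close together at -0.16 and -0.14.

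The spread within a strain also differed between members. In NC the SD of log2 values was 0.32 for CYS4, 0.26 for GSH1 and 0.24 for STR2, against a median of 0.13 over all features. In OPT most members were tighter than in NC, as was the median over all features, at 0.07. Only GSH2, at 0.02, lay below that median. STR3 reached 0.32, YCT1 0.21 and CYS4 0.15, and CYS3, STR2 and GSH1 were just above the median at 0.08 to 0.09.

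**Figure D4:**
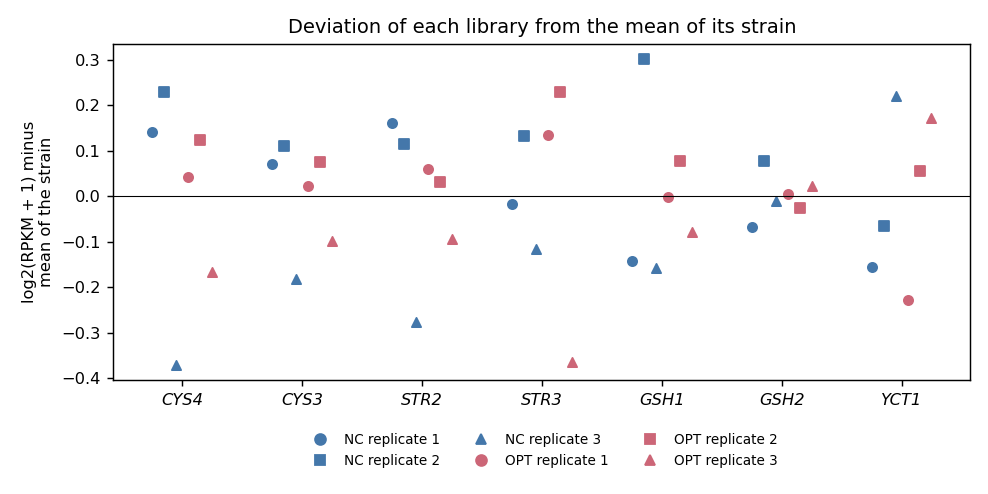
Deviation of each library from the mean of its strain, in log2(RPKM + 1), for the 7 genes. Replicate 3 (triangles) is lowest in both strains for CYS4, CYS3, STR2, STR3 and GSH1 and highest in both for YCT1.

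Profiles over the 6 libraries were compared with all features of at least 5 RPKM on average by the root mean square difference of log2 values, each less its mean over the libraries. Since the strain difference dominates such profiles, the nearest features are those with a like difference and like deviations, and nothing further is read from them. Nearest to CYS3 were SAM2, one of the S-adenosylmethionine synthetases, at 0.076, and MET6, the methionine synthase, at 0.081, followed by RMD6 at 0.085. CYS4 lay nearest to SNZ3 at 0.099, SAM1, the other S-adenosylmethionine synthetase, at 0.104 and THI21, a kinase of thiamine synthesis, at 0.106. SNZ3, THI21 and the SAM genes have close copies in the genome, between which the counting could have split reads. GSH1 lay nearest to BNA3, a kynurenine aminotransferase, at 0.028, to the flavin monooxygenase gene FMO1 at 0.068 and to MET6 at 0.078.

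None of the features nearest to the other members is known from sulfur metabolism, and neither are SNZ3, RMD6 and BNA3 above. STR2 lay nearest to HIS3 and HIS7, genes of histidine synthesis, at 0.030 and 0.043, and to CIA2 at 0.049. For GSH2, SSY1, MSW1 and ARP6 were within 0.014 to 0.016, as small differences are shared by many features. Features near STR3 were snR76, snR31 and YPR036W-A at 0.064 to 0.125, and those near YCT1 were MNN4, HSP30 and YRO2 at 0.15 to 0.173. Both sets were less close than those of STR2 and GSH2.

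Genes that supply the substrates of these enzymes, or draw on the same substrates, were called in both directions. Of 14 genes tested, 5 were called higher and 3 lower in OPT, where 5.38% and 13.8% of all features were. Their median log2 difference was 0.00 against -0.06 over all features. This list and those below were chosen with earlier results of these data known, so nothing is read from their counts. On the homocysteine side, MET17, the sulfhydrylase that joins sulfide to O-acetylhomoserine to give homocysteine, rose from 1733 ± 271 to 8749 ± 368 RPKM (log2 difference 2.35, standard error 0.13, limma adjusted p = 0.000205). MET2, which makes O-acetylhomoserine, rose from 53.4 ± 10.9 to 374 ± 50.1 RPKM, and MET6, which draws homocysteine off to methionine, from 453 ± 75.5 to 1340 ± 95.9 RPKM. SAH1, which releases homocysteine from S-adenosylhomocysteine, stood at 514 ± 23.1 and 433 ± 19.1 RPKM and was not called.

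For serine, the partner of homocysteine in the Cys4 reaction, the phosphoglycerate dehydrogenase isozyme genes went opposite ways. SER33 rose from 129 ± 10.6 to 533 ± 41.4 RPKM (log2 difference 2.04, limma adjusted p = 0.00011) and SER3 fell from 272 ± 45.7 to 133 ± 4.41 RPKM, though SER3 overlaps the noncoding SRG1, whose reads may be counted with it. SER2, the next but one step, fell by 0.30 on the log2 scale, a call that ended when any 1 OPT library was left out (adjusted p up to 0.0918). SHM1, the mitochondrial enzyme that converts serine and glycine into each other, fell by 0.49. The more abundant isozyme gene SHM2, at 871 ± 54.2 RPKM in NC and 764 ± 39.8 RPKM in OPT, was not called (limma adjusted p = 0.157). SER1, another serine synthesis gene of the list, was not called (log2 difference 0.12). For glutamate, a substrate of Gsh1, the minor glutamate dehydrogenase gene GDH3 rose by 1.01, from 40 ± 3.95 to 81.3 ± 4.87 RPKM, whereas GDH1 and GLT1 were not called. GLY1, the main source of glycine, was not called either.

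Genes that break down, transport or use glutathione gave 6 calls higher and 2 lower among 23 tested, where 5.38% and 13.8% of all features were called, with a median log2 difference of 0.13 against -0.06 over all features. The gene OPT1, which encodes the high-affinity glutathione importer of the plasma membrane and is not to be confused with the OPT strain, rose from 13.6 ± 0.327 to 37.9 ± 2.09 RPKM (log2 difference 1.41, standard error 0.06, limma adjusted p = 0.00011). DUG3, which with DUG2 cleaves glutathione in the cytosol, rose from 28.7 ± 4.27 to 60.1 ± 4.88 RPKM (adjusted p = 0.00297). DUG2 rose by only 0.30, and DUG1, the peptidase that then splits cysteinylglycine, fell by 0.34. GCG1, a cyclotransferase that opens glutathione by another route, fell by 0.28.

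Among listed enzymes that use glutathione or remove peroxides, the omega-class transferase gene GTO1 rose from 30.1 ± 7.99 to 82.0 ± 6.64 RPKM (log2 difference 1.44, limma adjusted p = 0.00399). GPX1, a glutathione peroxidase, rose from 24.0 ± 4.68 to 38.2 ± 3.6 RPKM and GTT2, a glutathione transferase, from 35.0 ± 0.895 to 42.6 ± 3.12 RPKM. The more abundant transferase gene GTT1 stood at 179 ± 50.1 and 275 ± 18.2 RPKM (log2 difference 0.66) and was not called (limma adjusted p = 0.0619). GLR1, the reductase that regenerates glutathione, stood at 107 ± 6.96 and 115 ± 4.26 RPKM (adjusted p = 0.328), and the abundant peroxidase gene HYR1 at 418 ± 62.3 and 444 ± 23.2 RPKM (adjusted p = 0.593). Only OPT1, DUG3 and GTO1 of the 8 calls held in all 14 alternative fits. DUG1, DUG2, GCG1, GPX1 and GTT2 lost theirs when NC replicate 2 or any 1 OPT library was left out, where the adjusted p reached 0.165. DUG1 and GCG1, the calls in the downward direction, also lost theirs with quantile normalization and with equal library medians, GPX1 with no filter and GTT2 without NC replicate 1. GEX1 was below the filter and GLO2 was not analysed here.

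The list of cysteine use and breakdown, which also holds steps of coenzyme A synthesis that do not themselves take cysteine, gave 4 of 9 genes called lower and 0 called higher, where 13.8% and 5.38% of all features were. Its median log2 difference was -0.12 against -0.06 over all features. IRC7, a lyase that can break cysteine down to sulfide, fell from 51.1 ± 4.26 to 30.6 ± 1.56 RPKM (log2 difference -0.72, standard error 0.08, limma adjusted p = 0.00286). YNL247W, the cysteinyl-tRNA synthetase gene, fell from 93.5 ± 7.76 to 68.1 ± 2.96 RPKM. ISD11, the partner of the cysteine desulfurase Nfs1 in iron-sulfur cluster assembly, fell from 228 ± 4.08 to 175 ± 10.6 RPKM, while NFS1 itself was not called. CAB1, for pantothenate kinase, the first step of coenzyme A synthesis, which acts before cysteine is joined, fell from 81.0 ± 8.53 to 63.2 ± 4.25 RPKM, and CAB2, whose product joins cysteine to phosphopantothenate, was not called. The call of IRC7 held in all 14 alternative fits, that of YNL247W ended without OPT replicate 1 (adjusted p = 0.0527), that of ISD11 without OPT replicate 2 or 3 (up to 0.0708), and that of CAB1 in 9 fits (up to 0.151).

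**Figure D5:**
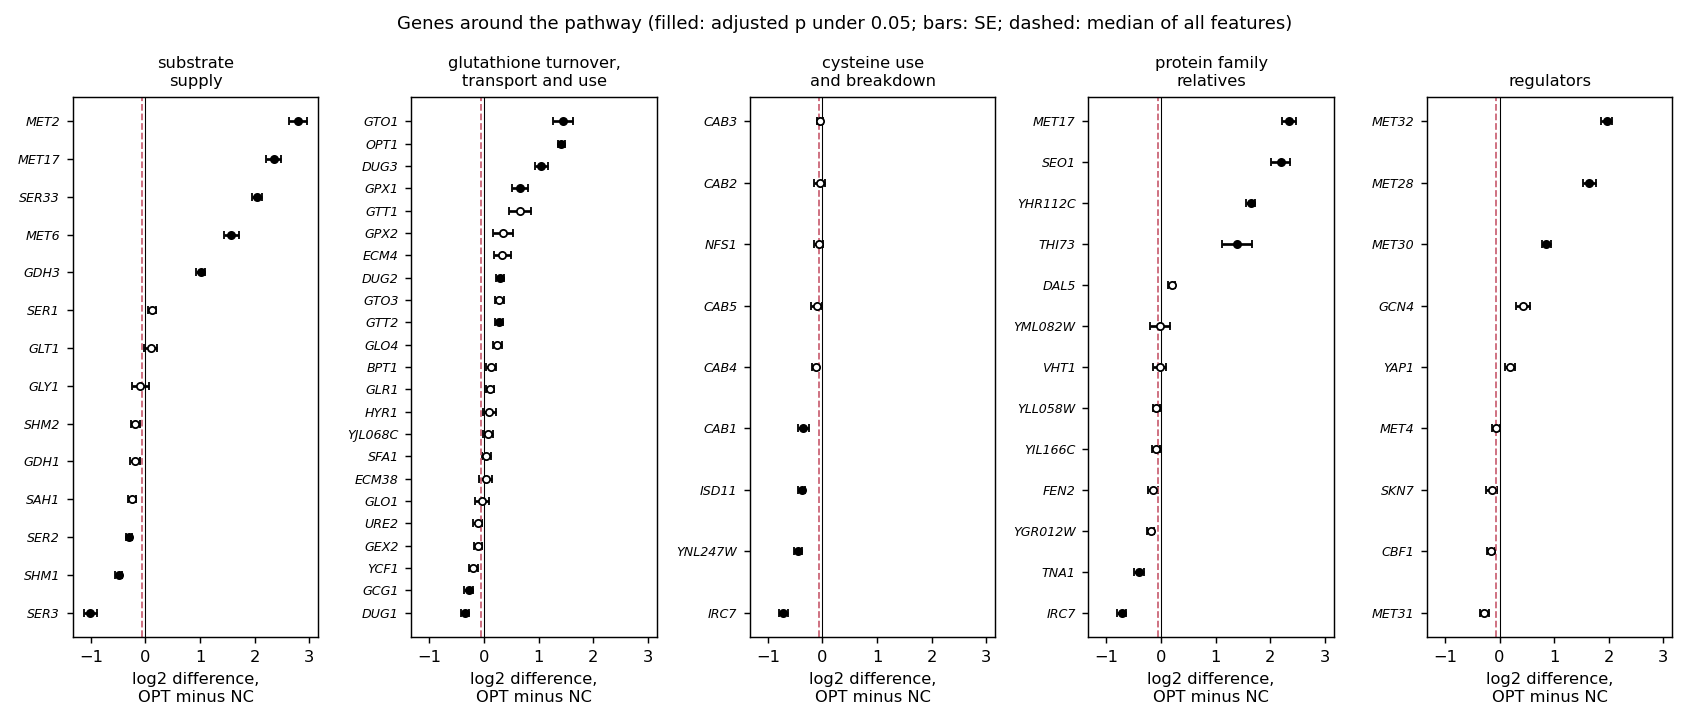
Log2 difference, OPT minus NC, with its standard error for the tested genes of 5 lists around the pathway, filled where the adjusted p was under 0.05, and the median of all features (dashed). MET2, MET17, MET32, SEO1 and SER33 lie highest, and the genes of cysteine use and breakdown that were called lie below 0.

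Relatives of the members by protein family did not share one direction. Cys3, Str2 and Str3 belong to a family of pyridoxal phosphate enzymes with Met17, Irc7 and the products of YHR112C, YLL058W and YML082W. Of these, MET17 rose as given above and YHR112C rose from 115 ± 10.6 to 360 ± 8.36 RPKM (log2 difference 1.64, limma adjusted p = 0.000151), IRC7 fell, and YLL058W and YML082W were not called, at 34.7 ± 1.2 and 32.6 ± 1.44 RPKM for YLL058W and 19.3 ± 4.99 and 18.7 ± 1.06 RPKM for YML082W. YGR012W, for a relative of Cys4, was not called (log2 difference -0.19, adjusted p = 0.0763). The transporter Yct1 belongs to a family of permeases with Seo1, Dal5, Tna1, Vht1, Fen2, Thi73 and the product of YIL166C. SEO1 rose from 17.7 ± 3.32 to 84.1 ± 14.8 RPKM (log2 difference 2.19, adjusted p = 0.000816) and THI73 from 337 ± 118 to 844 ± 71.6 RPKM, a call that ended when any 1 OPT library was left out (adjusted p up to 0.0667). TNA1, the nicotinic acid permease gene, fell by 0.41, a call that ended in 7 fits (adjusted p up to 0.0727), and the other 4 were not called. Over these 13 relatives, YGR012W included, 4 were called higher and 2 lower, where 5.38% and 13.8% of all features were, with a median log2 difference of -0.02.

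Regulators of the pathway were called higher in 3 of 9 cases and lower in 0, where 5.38% and 13.8% of all features were. Their median log2 difference was 0.19 against -0.06 over all features. Since they too were chosen with earlier results known, nothing is read from this count. The list reached 5 calls with array weights or without NC replicate 3. MET32, for a zinc finger protein that brings the activator Met4 to sulfur genes, rose from 45.3 ± 3.02 to 180 ± 20.3 RPKM (log2 difference 1.96, limma adjusted p = 0.000154). MET28, a cofactor of Met4, rose from 119 ± 17.6 to 375 ± 40.9 RPKM, and MET30, the F-box protein that holds Met4 in check, from 70.2 ± 4.80 to 128 ± 9.66 RPKM. MET4 mRNA itself stood at 72.3 ± 5.15 and 69.0 ± 2.63 RPKM and was not called (adjusted p = 0.574). MET31, the relative of MET32, stood at 69.0 ± 1.19 and 56.9 ± 5.35 RPKM (log2 difference -0.28, limma adjusted p = 0.05) and was not called. YAP1, for the oxidative stress factor known to activate GSH1, stood at 83.8 ± 9.13 and 95.6 ± 3.43 RPKM (adjusted p = 0.184), and GCN4, for the activator of amino acid synthesis, at 1160 ± 193 and 1545 ± 25.9 RPKM (adjusted p = 0.0626), without a call for either.

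The 7 genes lie on 5 chromosomes, and no other RefSeq gene overlaps any of them. Of the 14 genes annotated on either side, 13 were tested, 2 were called higher and 1 lower, where 5.38% and 13.8% of all features were, and their median log2 difference was 0.10. GTO1, described above, is the neighbour of CYS4. The systematic names of the pair, YGR154C and YGR155W, place them on opposite strands and transcribed away from each other, with 674 nucleotides between them, and both stood higher in OPT. YJR129C, on the same strand as STR2 and 198 nucleotides away, fell with STR2, from 12.5 ± 1.47 to 8.97 ± 0.552 RPKM (log2 difference -0.44, limma adjusted p = 0.028), a call that ended with equal medians, or when NC replicate 1 or any 1 OPT library was left out (up to 0.108).

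MND1, a gene of meiotic recombination beside STR3, rose from 5.15 ± 0.577 to 9.40 ± 0.226 RPKM (limma adjusted p = 0.00479), a level that the stricter filter removes. Both tested neighbours of CYS3, DEP1 and SWC3, and both of YCT1, YLL056C and YLL054C, were not called, with log2 differences between 0.02 and 0.22. PTI1 beside CYS4, YGL185C beside STR3 and MNS1 beside STR2, at -0.11, -0.10 and -0.19, were not called. LSB6 beside GSH1, at 0.17, and GAL11 and RRT8 beside GSH2, at 0.20 and 0.18, were not called either. The comparison with neighbours was added after the members' values had been seen.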

How the data were processed

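The 3 NC and 3 OPT total RNA libraries were made with a TruSeq kit, per the labels' protocols, and the series' 6 libraries of ribosome footprints are left aside. Per the file headers, the values that the authors deposited are normalized RPKM, with 1 row per gene. Build R64 and the tools CASAVA 1.8.0, TopHat and Bowtie are named in the submitters' processing notes. The counting method, its use of strand and the normalization are not given in the sources used here, so reads of overlapping or antisense transcripts may be counted together.

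Columns were matched to samples by library name. Of the table, 3 emptied lines and 1 repeated row (ZWF1, shifted by a column) were left out, and 5992 of 6347 features matched RefSeq R64, whose coordinates are printed. Depth was read from low RPKM values: multiplied by RefSeq length, 99.2 to 100.0% of those worth at most 40 reads came within 0.15 read of a whole multiple of 1 step, against 20.7 to 25.4% at wrong steps. They describe depth only, and counting errors cover counting alone.

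The test was limma 3.58.1 (R 4.3.3, two-sided, eBayes with a trend, no covariate) on log2(RPKM + 1), for features that averaged 1 RPKM or more, with Benjamini-Hochberg adjustment over all of them and a call at an adjusted p under 0.05. Fold changes on that scale understate changes of low genes. Rows of cdt-1 were fitted too but left out of counts. Nothing beyond the design text says that the replicates came from separate cultures, so p-values measure the spread between these samples. The fit was checked only on simulated data with independent noise for each feature. Those data held no deviation shared across a library, so the check does not cover such deviations. Tables and figures used Python 3.11.15, numpy 2.4.6, pandas 2.3.3 and matplotlib 3.10.9.

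The members, the lists and the rule for named genes were chosen with earlier results of these data known. Named were all members, up to 4 called genes of each list by size of difference (or the 2 most abundant), the 3 features nearest to each member in profile, and cdt-1. Other genes are named to complete a count or an enzyme step, or were chosen after their values were seen. Promoter motifs and protein identities, which had been planned, were not analysed here.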

Additional observations from a re-analysis of the deposited data

How the results depend on the processing

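Besides leaving out each library, the fit was repeated with quantile normalization, equal library medians, array weights, a common prior variance, protein-coding features only, a pseudocount of 0.1, and a filter of 10 RPKM or none. Of the members 5 were called, and 4 to 6 under these settings. Their log2 differences moved by more than the replicate spread in 2 of 98 values, both of GSH2. Over all features 1145 were called, 322 higher and 823 lower. The split depended on the scale, with 471 higher and 491 lower at equal medians and 420 higher and 602 lower with quantile normalization, and array weights gave 1262 lower. Leaving out 1 library gave 361 to 1953 calls, with 134 to 450 higher and 227 to 1503 lower. The 361, 483 and 525 came without OPT replicates 2, 1 and 3, and 1953 without NC replicate 3. In the lists, leaving out 1 library gave 3 to 11 calls for glutathione turnover, transport and use, 2 to 4 for cysteine use, and 3 to 5 for regulators, which also gave 5 with array weights. The cause was not tested. The planned motif alternatives were not run. No paired analysis was possible because the labels give no replicate numbers. With 3 libraries per strain, the spread between libraries is itself poorly known.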
